A study of Homo sapiens with 6 samples.

Results

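The metallothionein group held 10 genes: the 8 metallothionein genes *MT1A*, *MT1E*, *MT1F*, *MT1G*, *MT1H*, *MT1M*, *MT1X* and *MT2A*, the transcription factor gene *MTF1* and the zinc exporter gene *SLC30A1*. They were chosen by symbol, and 8 of the 10 had a row among the 39739 gene rows of each library. *MT1H* and *MT1M* had no row under these symbols and were not analysed here. Of the 8 genes with a row, 4 reached a level of at least 0.1 RPKM (reads per kilobase of merged exon per 1000000 reads assigned to genes) in 3 or more libraries and were tested, and the other 4 did not.

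The libraries were made from HGC27 cells, an established human gastric cancer line grown in RPMI-1640 medium with fetal bovine serum. In 3 libraries the cells stably overexpressed the 3′-untranslated region of the *FN1* mRNA, delivered by lentivirus and kept by puromycin selection as resistant cells (HGC27-FN1 3′-UTR). The other 3 were HGC27-control cells, for which the labels give no vector. The study asked which transcripts differed once this untranslated region was overexpressed. The labels do not say whether the 3 libraries of a group came from separate cultures, so p-values measure the spread between these libraries only, and the construct and any other difference between the pair of cell lines cannot be told apart.

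The libraries held 16357085 to 37037532 reads assigned to genes, and 3 reads corresponded to 0.081 to 0.183 reads per 1000000 assigned reads. As a check of the labels, *FN1* itself, which encodes fibronectin, stood at 0.777, 0.745 and 0.819 RPKM in HGC27-FN1 3′-UTR libraries 1 to 3 and at 0.543, 0.474 and 0.532 RPKM in control libraries 1 to 3. The groups did not overlap, and the log2 fold change was 0.52 (SE 0.11; limma adjusted p = 0.0292, n = 3 per group). This call was lost when any 1 of the 6 libraries was left out (limma adjusted p 0.0614 to 0.0982). The *FN1* row covers 17315 bases of merged exon. Its value therefore does not separate the overexpressed region from the rest of the mRNA, and the level of the construct was not measured here. Every log2 fold change given here is HGC27-FN1 3′-UTR minus control on the log2(RPKM + 0.1) scale, which understates changes of low genes. Endothelial markers summed to between 0 and 0.0222 RPKM, with *PECAM1* at 0 in every library, and *PTPRC* averaged 0.0095 and 0.0091 RPKM. All 5 epithelial markers (*EPCAM*, *CDH1*, *KRT8*, *KRT18* and *KRT19*) were higher at an adjusted p under 0.05 by limma, where 5.62% of all tested genes were. They rose from a summed 2.59 to 2.99 RPKM in control libraries to 18.2 to 27.0 RPKM, while *VIM* averaged 304.2 RPKM against 303.1 RPKM in control cells. The part of this shift in the values below was not tested.

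Metallothioneins are small cysteine-rich proteins of the cytosol that bind zinc, copper and cadmium through their thiol groups and buffer free zinc. *MTF1* encodes a zinc-finger factor that senses zinc, enters the nucleus and binds metal response elements, short motifs in the promoters of metallothionein genes and of *SLC30A1*. *SLC30A1* encodes ZnT1, which carries zinc out across the plasma membrane. Metallothionein genes are also induced by glucocorticoids and oxidants.

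To show the sequence that links the metallothionein genes with their zinc-sensing regulator, the promoter windows of RefSeq (GRCh38.p14; 250 bases before to 50 bases after the start) were searched on both strands for the core TGCACNC or TGCGCNC. In the strand shown, a match on the other strand reads GNGTGCA or GNGCGCA. *MT2A*, *MT1X*, *MT1H*, *MTF1* and *SLC30A1* had a window, and *MT1A*, *MT1E*, *MT1F*, *MT1G* and *MT1M* had none in the table. The *MT2A* window held 8 cores, 7 of them before the start, and the *MT1X* window held 4. Each stretch of 21 bases below is printed 5′ to 3′ on the strand of the gene, with the 7-letter core in capitals, and these are the stretches that lie wholly before the start and inside the window.
MT2A chr16:56608409-56608429 (+): gcggcccGTGTGCAgagccgg
MT2A chr16:56608424-56608444 (+): agccgggTGCGCCCggcccag
MT2A chr16:56608438-56608458 (+): ggcccagTGCGCGCggccggg
MT2A chr16:56608489-56608509 (+): gcggggcGTGTGCAggcagcg
MT2A chr16:56608523-56608543 (+): gggctttTGCACTCgtcccgg
MT1X chr16:56682313-56682333 (+): cccgcggTGCGCCCggcgctg
MT1X chr16:56682341-56682361 (+): gggttgcTGCACCCggcccag
MT1X chr16:56682385-56682405 (+): caggggcGGGTGCAaggacga
MT1X chr16:56682410-56682430 (+): gggcctcTGCGCCCggccctc
The printed cores of *MT2A* began 168, 153, 139, 88 and 54 bases before the start, and those of *MT1X* began 150, 122, 78 and 53 bases before it. The letters TATAAA began 29 bases before the start in *MT2A* and 30 bases before it in *MT1X*. Of all 35116 windows of the same length, 29.551% held at least 1 core, 0.601% at least 4 and 0.048% at least 7, and 7.33% held TATAAA. A match describes letters in a window and is not evidence of a bound site. The start here is that of RefSeq. The deposited *MT2A* row begins earlier, at base 56608199 of chromosome 16, so all printed *MT2A* stretches lie inside its exon. The *MT1X* row begins at base 56682424, inside the last printed *MT1X* stretch.

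Other windows were searched for the same letters. The *SLC30A1* window held 2 cores, 1 of them before the start, and no TATAAA. The *MTF1* window held none of these letters. The *MT1H* window held 8 cores and no TATAAA. *MT4*, a metallothionein gene of squamous epithelium in the same chromosomal cluster that had 1 read in all 6 libraries together, held 3 cores, with TATAAA 29 bases before the start. Its stretches are shown beside that of *SLC30A1* because a window with several cores stood next to a gene with almost no reads.
MT4 chr16:56564857-56564877 (+): gtgaggtGGGTGCAgccacct
MT4 chr16:56564870-56564890 (+): agccaccTGCACCCctggtga
MT4 chr16:56564976-56564996 (+): ctgggccGTGTGCAgggcgtc
SLC30A1 chr1:211579197-211579217 (-): gggttccGAGTGCAaagcaaa
At least 2 cores occurred in 8.6% of all windows and at least 3 in 2.304%. The start of the RefSeq window of *SLC30A1* lay outside the row of the deposited table, which ends at base 211578742 of chromosome 1.

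Among the metallothionein genes with a row, the reads came almost wholly from *MT2A* and *MT1X*. The metallothionein genes with a row took 20055 reads in all 6 libraries together, and *MT2A* alone held 86.9% of them. Only 11 reads (0.0548%) fell outside *MT2A* and *MT1X*. All of these genes lie in the cluster on the long arm of chromosome 16, where *MT2A* and *MT1X* stand 74.2 kb apart and *MT1E*, *MT1A*, *MT1F* and *MT1G* lie between them.

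**Figure D1:**
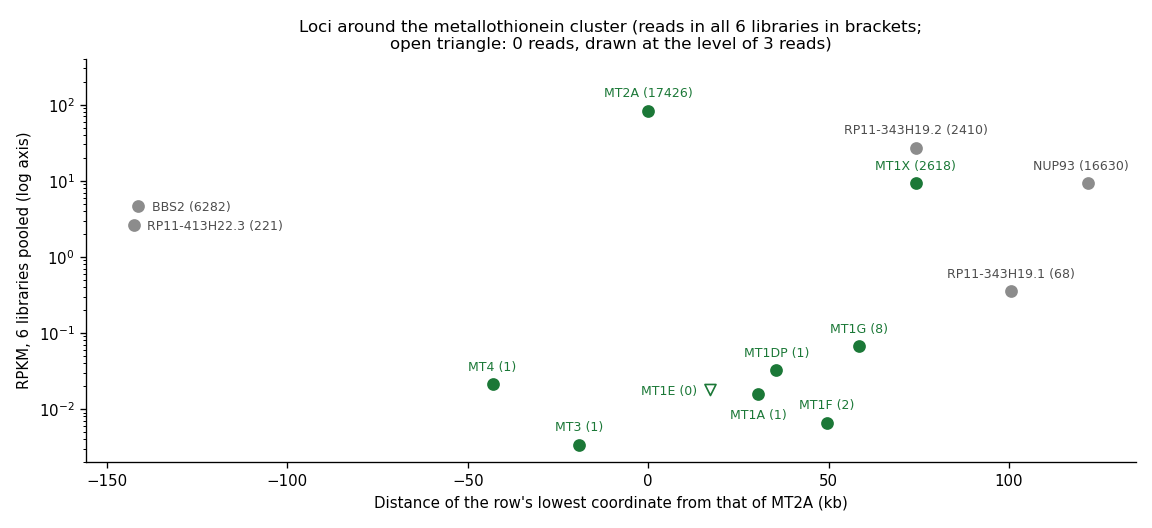
RPKM pooled over the 6 libraries (log axis) against the distance in kb of each row from *MT2A*, for the metallothionein rows of chromosome 16 (green) and their neighbours (grey), with the reads of all 6 libraries in brackets; the open triangle is a row with 0 reads, drawn at the level of 3 reads. *MT2A* (17426 reads) and *MT1X* (2618 reads) stand apart from the metallothionein rows between them, which held 0 to 8 reads each.

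*MT2A* (chr16:56608199-56609497, plus strand of GRCh38, 1299 bases of merged exon) was the most abundant gene of the group and ranked 603 by mean RPKM among all rows. It stood at 97.6, 79.8 and 100.7 RPKM in HGC27-FN1 3′-UTR libraries 1 to 3, from 2073, 2531 and 3819 reads. In control libraries 1 to 3 it stood at 71.4, 70.6 and 85.3 RPKM, from 2072, 2827 and 4104 reads. HGC27-FN1 3′-UTR library 2 lay below control library 3, so the groups overlapped, and libraries 1 and 3 of HGC27-FN1 3′-UTR cells lay above every control library.

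The means of *MT2A* were 92.7 ± 11.3 RPKM and 75.8 ± 8.25 RPKM (SD, n = 3 each), a ratio of 1.22. The log2 fold change of 0.29 (SE 0.11, 95% interval 0.02 to 0.56) did not pass the test across all genes, with a limma adjusted p of 0.144. The exact two-sided permutation p was 0.2, where 3 libraries against 3 cannot go below 0.1. The replicate spread, 12.2% and 10.9% of the mean, was several times the 1.95% and 1.90% that counting of its reads alone would give, so counting error was the smaller part of it.

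*MT1X* (chr16:56682424-56684196, plus strand, 1773 bases) was the second metallothionein gene with an appreciable level, at rank 4845. It stood at 10.8, 9.54 and 9.85 RPKM in HGC27-FN1 3′-UTR libraries 1 to 3, from 312, 413 and 510 reads. The control libraries gave 7.42, 7.92 and 9.99 RPKM, from 294, 433 and 656 reads. Control library 3 exceeded HGC27-FN1 3′-UTR libraries 2 and 3, whereas control libraries 1 and 2 lay below all 3 of them.

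The means of *MT1X* were 10.0 ± 0.634 RPKM and 8.45 ± 1.36 RPKM (SD, n = 3 each), a ratio of 1.19. The log2 fold change of 0.26 (SE 0.11, 95% interval -0.016 to 0.53) did not pass the test, with a limma adjusted p of 0.192. This rested on control library 3: without it the log2 fold change was 0.38 and the limma adjusted p 0.0338.

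Reads of *MT1X* could also be counted in a second row. RP11-343H19.2 (chr16:56682470-56687807, plus strand, 551 bases of exon), a long non-coding gene chosen for description after its values were seen, shares 321 exon bases on the same strand with *MT1X*. It held 288, 378 and 472 reads in HGC27-FN1 3′-UTR libraries and 273, 388 and 611 reads in control libraries. In every library this was 0.896 to 0.931 times the reads of *MT1X*, and its log2 fold change was 0.26 (SE 0.12; limma adjusted p = 0.201). Rows lying wholly inside exons of other rows on the same strand held reads in 593 of 604 cases, so a read could be counted in more than 1 row. The levels of *MT1X* and of the long non-coding gene apart from each other are uncertain for this reason. No other gene of the group shared exon bases with another row on either strand.

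*MT2A* and *MT1X* kept a similar proportion to each other in both groups. The ratio of their RPKM was 9.07, 8.36 and 10.2 in HGC27-FN1 3′-UTR libraries and 9.62, 8.91 and 8.54 in control libraries. The mean ratios were 9.22 ± 0.94 and 9.02 ± 0.55 (SD, n = 3 each), a difference smaller than the spread within either group. The RPKM of the metallothionein genes summed to 108.6, 89.3 and 110.6 in HGC27-FN1 3′-UTR libraries and to 78.9, 78.6 and 95.4 in control libraries, with means of 102.8 ± 11.8 and 84.3 ± 9.62. The sums overlapped between the groups and had a ratio of means of 1.22.

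**Figure D2:**
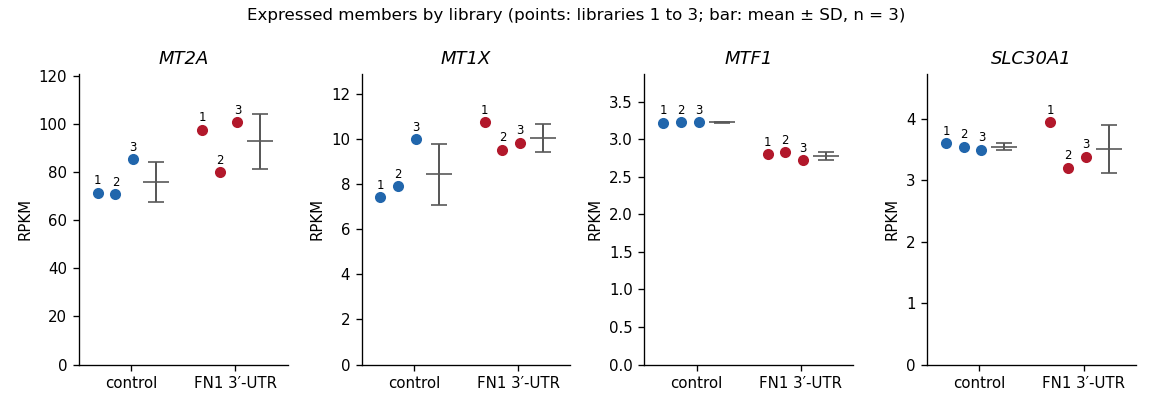
RPKM of *MT2A*, *MT1X*, *MTF1* and *SLC30A1* (linear axes from 0) in control libraries (blue) and HGC27-FN1 3′-UTR libraries (red), numbered 1 to 3, with bars for the mean ± SD of n = 3. The groups overlap for *MT2A*, *MT1X* and *SLC30A1*, and for *MTF1* the values of 2.72 to 2.83 RPKM in HGC27-FN1 3′-UTR libraries lie below the control values of 3.22 to 3.23 RPKM.

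The remaining metallothionein genes were at or near the limit of detection in both groups. *MT1E* (chr16:56625475-56627112, 1052 bases) had 0 reads in every library, and 3 reads over all 6 libraries would correspond to 0.0178 RPKM. Against this level *MT2A*, at 83.8 RPKM over the pooled reads, was 4704-fold higher and *MT1X* 518-fold higher. The upper end of the 95% Poisson interval of *MT1E* was 0.0219 RPKM, against which both folds are smaller. Both limits cover counting error only.

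*MT1A* (chr16:56638666-56640087, 396 bases) had 1 read, in control library 3. *MT1F* (chr16:56657694-56660698, 1889 bases) had 1 read each in control libraries 1 and 3. *MT1G* (chr16:56666731-56668065, minus strand, 750 bases) had 3, 0 and 2 reads in HGC27-FN1 3′-UTR libraries and 0, 2 and 1 reads in control libraries. Its 8 reads (95% Poisson interval 3.45 to 15.8) corresponded to 0.0666 RPKM over the pooled libraries. *MT1E*, *MT1A*, *MT1F* and *MT1G* did not enter the test, and a difference between the groups was not detectable for them at this depth.

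The partial likeness of metallothionein genes bears on such low counts, because a read that fits several genes may be placed in any of them or dropped. In the GENCODE 29 transcripts, 83.5% of the 50-base words of *MT1G* and 94.2% of those of *MT1A* occurred in no other gene. The shares were 92.9% for *MT1E*, 98.8% for *MT1F*, 97.0% for *MT2A* and 81.7% for *MT1X*. With words of 100 bases the share was 100% for each of them except *MT1X*, at 88.7%, whose shared words lay only in the overlapping long non-coding gene. The read length is not given in the sources used here.

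Other metallothionein loci added few reads. Of 13 named loci, *MT1DP*, *MT1P1*, *MT1P3*, *MT1XP1*, *MT1HL1*, *MT2P1*, *MT3* and *MT4* had a row. *MT3*, known for its expression in brain, and *MT4* had 1 read each, in control library 3. The pseudogenes *MT1P3*, *MT1XP1* and *MT2P1* had 13, 6 and 6 reads and entered the test. By limma 0 of these 3 passed it (all tested genes 13.0%) and 0 had an unadjusted p under 0.05 (all tested genes 29.6%). With limma voom on the recovered reads 0 passed (all tested genes 8.77% higher and 13.2% lower). Their rows are short copies of metallothionein transcripts, so the origin of their reads is uncertain. *MT1DP* and *MT1HL1* had 1 read each, and *MT1P1* had 0.

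*MTF1*, the regulator, was the 1 gene of the 4 tested that passed, where 13.0% of all 23299 tested genes passed (5.62% higher, 7.36% lower). The gene (chr1:37809567-37859620, minus strand, 8024 bases of exon) stood at 2.80, 2.83 and 2.72 RPKM in HGC27-FN1 3′-UTR libraries, from 367, 554 and 638 reads. It stood at 3.22, 3.23 and 3.23 RPKM in control libraries, from 577, 798 and 959 reads. All 3 HGC27-FN1 3′-UTR libraries lay below all 3 control libraries.

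The means of *MTF1* were 2.78 ± 0.054 RPKM and 3.22 ± 0.0041 RPKM (SD, n = 3 each), a ratio of 0.863. It fell by 0.21 on the log2 scale (SE 0.047, 95% interval -0.32 to -0.094; limma adjusted p = 0.0372), with an exact permutation p of 0.1, the smallest this design allows. The SD of the control libraries was 0.128% of their mean, where counting of their reads alone would give 3.66%, so this spread was smaller than the depth can resolve. The call was lost when any 1 of the 6 libraries was left out, with limma adjusted p between 0.0845 and 0.122, and with median-ratio scaling between libraries, with a limma adjusted p of 0.0632. The direction stayed lower in each of these.

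**Figure D3:**
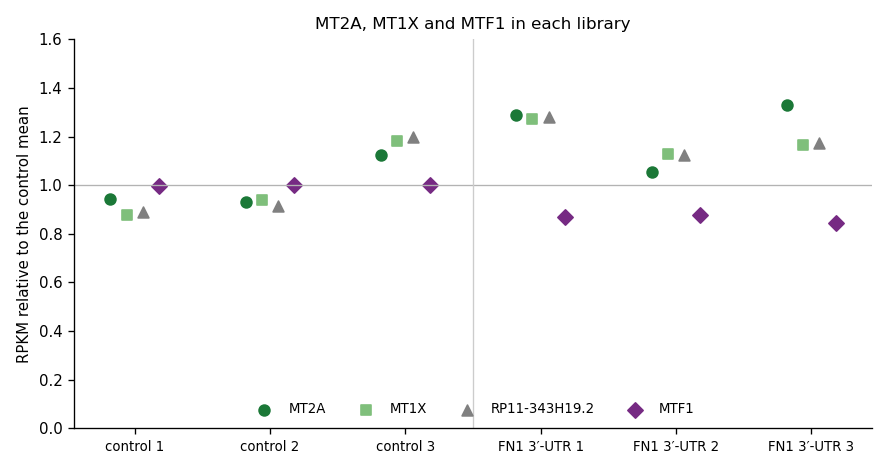
RPKM of *MT2A*, *MT1X*, the overlapping RP11-343H19.2 and *MTF1* in each library, divided by the gene's control mean (linear axis from 0, line at 1). *MT1X* and the overlapping row move together, control library 3 lies above the control mean for *MT2A* and *MT1X*, and *MTF1* lies below its control mean in all 3 HGC27-FN1 3′-UTR libraries.

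*SLC30A1*, the zinc exporter (chr1:211571568-211578742, minus strand, 5474 bases), showed no difference that passed the test. It stood at 3.94, 3.20 and 3.38 RPKM in HGC27-FN1 3′-UTR libraries, from 353, 428 and 540 reads. In control libraries it stood at 3.60, 3.54 and 3.49 RPKM, from 440, 598 and 708 reads. HGC27-FN1 3′-UTR library 1 was the highest of all 6 and library 2 the lowest, so the groups overlapped on both sides.

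The means of *SLC30A1* were 3.51 ± 0.387 RPKM and 3.55 ± 0.054 RPKM (SD, n = 3 each). The log2 fold change was -0.02 (SE 0.082, 95% interval -0.22 to 0.18; limma adjusted p = 0.902). Its sign turned with a single library or the scaling, to 0.041 without HGC27-FN1 3′-UTR library 2, 0.0032 without library 3 and 0.013 with median-ratio scaling. The ratio of *SLC30A1* to *MTF1* RPKM was 1.41, 1.13 and 1.24 in HGC27-FN1 3′-UTR libraries and 1.12, 1.10 and 1.08 in control libraries, with HGC27-FN1 3′-UTR library 2 just above control library 1.

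By level per length over both groups the order was *MT2A*, *MT1X*, *SLC30A1* and *MTF1*, followed by the 4 genes below the minimum. *MT2A* and *MT1X* were separate from each other and from the rest in every library. *SLC30A1* lay above *MTF1* in each of the 6 libraries, by a ratio of at least 1.08. Over the pooled reads *MT1G* (95% Poisson interval 0.0288 to 0.131 RPKM) lay above the upper limits of *MT1E* (0.0219 RPKM) and *MT1F* (0.0239 RPKM), and *MT1A* (upper limit 0.0878 RPKM) could not be placed among them. These limits cover counting error only. *MT1G* shares 50-base words with 11 genes, *MT2A* and *MT1X* among them, so the origin of its 8 reads and its place in this order are uncertain.

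Of the 4 tested genes, 0 were higher and 1 (*MTF1*) was lower at an adjusted p under 0.05 by limma, where the shares of all tested genes were 5.62% and 7.36%. With limma voom on the recovered reads 1 (*MT2A*, adjusted p = 0.00708) was higher and 1 (*MTF1*, adjusted p = 0.00777) was lower, and that fit called 8.77% of all tested genes higher and 13.2% lower. At an unadjusted p under 0.05, *MT2A* and *MTF1* passed, 2 of 4, where 29.6% of all tested genes did. For 1 of the 4 (*MTF1*) the groups were separate, as they were for 36.0% of all tested genes, 14.3% higher and 21.7% lower. None of the 4 passed the study's criteria of an absolute log2 fold change above 1 with P under 0.05, which 2.47% of all tested genes passed. The median log2 fold change was 0.12 over the 4 tested genes and -0.035 over all tested genes.

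Genes of the wider zinc pathway were counted from lists. Among the other ZnT exporters, which carry zinc out of the cytosol, 0 of 6 tested genes passed in either direction by limma (all tested genes 5.62% higher and 7.36% lower). Their log2 fold changes ran from -0.41 to 0.13, with a median of 0.07. *SLC30A3*, named after its value was seen, was the 1 with an unadjusted p under 0.05 (all tested genes 29.6%). It was also the 1 that limma voom called lower (all tested genes 13.2%), at 0.437 RPKM against 0.614 RPKM in control cells. Among the ZIP importers, which carry zinc into the cytosol, 3 of 10 tested genes rose and 0 fell by limma (all tested genes 5.62% and 7.36%). The counts were the same by limma voom (all tested genes 8.77% and 13.2%), and the median log2 fold change was -0.0068. The 3 were *SLC39A1*, *SLC39A8* and *SLC39A10*, named after their values were seen.

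*SLC39A8*, which encodes the zinc and manganese importer ZIP8, averaged 6.57 ± 0.447 RPKM against 5.32 ± 0.0624 RPKM in control cells (log2 fold change 0.30; limma adjusted p = 0.0232, n = 3 per group). *SLC39A10* averaged 4.29 ± 0.0755 RPKM against 3.54 ± 0.0611 RPKM (log2 fold change 0.27; limma adjusted p = 0.0135). *SLC39A1*, a broadly expressed zinc importer of the cell surface, averaged 28.3 ± 0.252 RPKM against 25.5 ± 0.529 RPKM (log2 fold change 0.15; limma adjusted p = 0.0214). In each of these the lowest HGC27-FN1 3′-UTR library lay above the highest control library, as in 14.3% of all tested genes. These genes were named because they passed the test on the same libraries, so this separation is no separate result. With 1 library left out, the call of *SLC39A10* was lost without HGC27-FN1 3′-UTR library 1 or control library 2, that of *SLC39A1* without control library 2 or any HGC27-FN1 3′-UTR library, and that of *SLC39A8* without any library other than HGC27-FN1 3′-UTR library 3.

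Copper handling genes were counted in the same way. Of 14 tested genes 1 rose and 0 fell by limma (all tested genes 5.62% and 7.36%), with a median log2 fold change of -0.066. At an unadjusted p under 0.05 there were 7 of 14, where 29.6% of all tested genes passed. Limma voom called 1 higher and 3 lower (*SLC31A1*, *ATP7B* and *SOD1*, named after their values were seen), where it called 8.77% and 13.2% of all tested genes. The 1 that rose was *SCO1*, a copper chaperone for cytochrome c oxidase, also named after its value was seen, at 10.1 ± 0.0955 RPKM against 8.52 ± 0.347 RPKM (log2 fold change 0.24; limma adjusted p = 0.016), a call lost without control library 2 or any HGC27-FN1 3′-UTR library. The copper importer gene *SLC31A1* averaged 7.18 RPKM against 7.91 RPKM in control cells, and the groups did not overlap, but it did not pass (limma adjusted p = 0.0751). Of the 30 tested genes in the ZnT, ZIP and copper lists, 4 were higher in all, and this count was 0 without HGC27-FN1 3′-UTR library 1 or without control library 2, 1 without HGC27-FN1 3′-UTR library 2 and 2 without library 3.

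**Figure D4:**
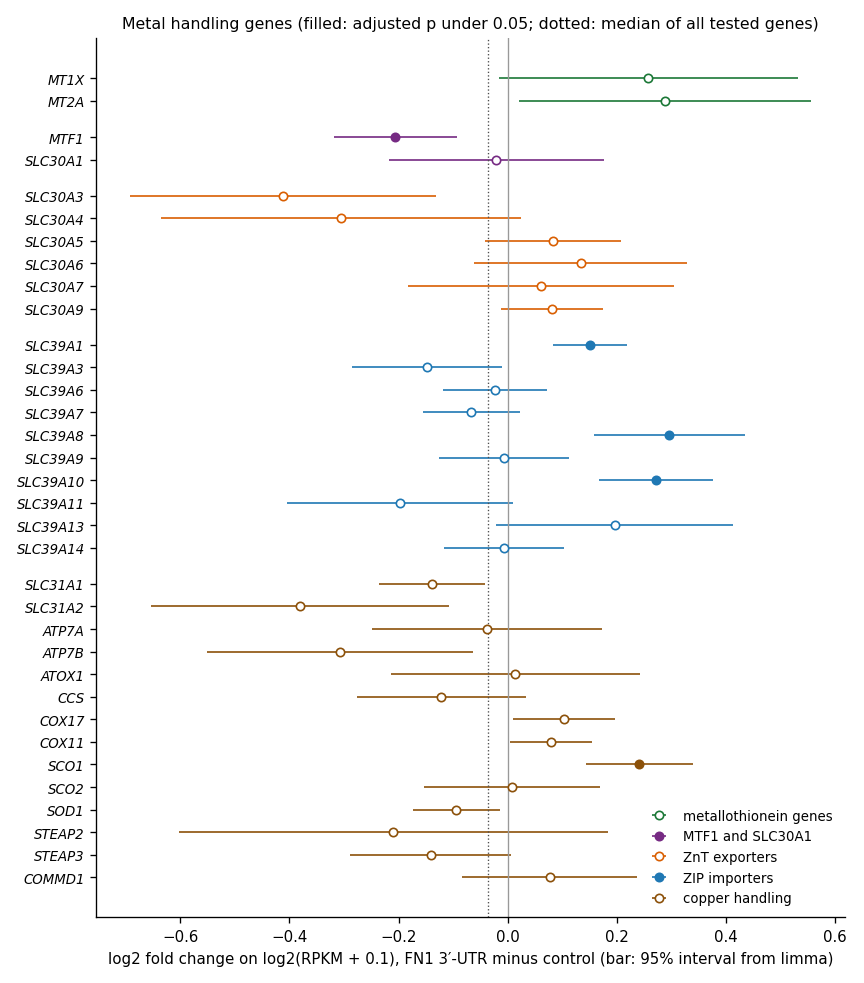
Log2 fold change on log2(RPKM + 0.1), HGC27-FN1 3′-UTR minus control, with the 95% interval from limma, for tested genes of the group and of the ZnT, ZIP and copper lists; filled points have an adjusted p under 0.05, and the dotted line is the median of all tested genes (-0.035). *MTF1* is the filled point of the group, and *SLC39A1*, *SLC39A8*, *SLC39A10* and *SCO1* are the filled points of the lists.

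Of 14 tested genes in a list of genes that metals and oxidants also induce, 1 rose and 4 fell by limma (all tested genes 5.62% and 7.36%), with a median log2 fold change of -0.12. Limma voom called 1 higher and 6 lower (all tested genes 8.77% and 13.2%), adding *GCLC* and *SQSTM1*, named after their values were seen, to the 4. The heat shock gene *HSPA1A* fell from 22.6 ± 0.851 to 11.1 ± 0.840 RPKM (log2 fold change -1.01; limma adjusted p = 0.000739, n = 3 per group). *HSPA1B*, which is nearly identical to it, so that the division of reads between them is uncertain, gave -1.01 (limma adjusted p = 0.00111). *HSPA8*, the constitutive chaperone HSC70, fell from 405.6 ± 4.99 to 317.8 ± 9.38 RPKM (log2 fold change -0.35; limma adjusted p = 0.00265). *DNAJB1*, a co-chaperone, fell by 0.26 and *TXNRD1*, thioredoxin reductase, rose by 0.18 on the log2 scale, and both were named after their values were seen. Calls of *HSPA1A*, *HSPA1B* and *HSPA8* held with any 1 library left out. That of *DNAJB1* was lost without HGC27-FN1 3′-UTR library 1 or 3 or control library 2 or 3, and that of *TXNRD1* without any library other than control library 1. *HSPH1*, another heat shock gene of the list, also named after its value was seen, averaged 26.7 RPKM against 28.0 RPKM and did not pass (limma adjusted p = 0.259). *HMOX1*, the heme oxygenase gene that cadmium and oxidants induce, averaged 5.32 and 5.15 RPKM and did not pass (limma adjusted p = 0.733).

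Glucocorticoid-induced genes showed no common direction, with 1 of 7 tested genes higher and 1 lower by limma (all tested genes 5.62% and 7.36%) and a median log2 fold change of 0.16. Limma voom called 2 higher (*DUSP1* and *ERRFI1*, the latter named after its value was seen) and 1 lower (all tested genes 8.77% and 13.2%). *TSC22D3*, which encodes the glucocorticoid-induced leucine zipper protein, fell from 4.83 ± 0.395 to 1.99 ± 0.152 RPKM (log2 fold change -1.24; limma adjusted p = 0.00108, n = 3 per group). *DUSP1*, a phosphatase of MAP kinases, rose from 4.78 ± 0.342 to 6.21 ± 0.187 RPKM (log2 fold change 0.37; limma adjusted p = 0.0156). The call of *TSC22D3* held with any 1 library left out, and that of *DUSP1* was lost without HGC27-FN1 3′-UTR library 2 or 3 (limma adjusted p up to 0.0558). *FKBP5* averaged 15.6 and 15.5 RPKM and did not pass (limma adjusted p = 0.975). *NR3C1*, the glucocorticoid receptor gene, had 5 reads in all 6 libraries together.

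The genes nearest in pattern to the summed metallothionein RPKM were ranked by the root-mean-square difference of centred log2 profiles over the 6 libraries, among 14652 genes with a mean of at least 1 RPKM. *MT2A*, which makes up most of the sum, came first at 0.0097. *CATSPER2P1* (0.021), *C6orf120* (0.036), *STX11* (0.036), *CTAG2* (0.043) and *GALNT7* (0.043) followed, and *MT1X* came 75th at 0.089. The profile they share is one in which control library 3 lay above the other control libraries and HGC27-FN1 3′-UTR library 2 lay below the other 2. Genes picked as nearest among 14652 over only 6 libraries share it by selection, so the likeness is no evidence of a link with the metallothionein genes. *CTAG2*, a cancer-testis antigen gene, for example, stood at 178.9, 150.6 and 174.3 RPKM in HGC27-FN1 3′-UTR libraries and at 132.5, 136.4 and 162.0 RPKM in control libraries.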

How the data were processed

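The series holds 6 RNA-seq libraries. By the sample labels, 3 belong to the HGC27-FN1 3′-UTR group and 3 to the control group. The deposited values are RPKM per gene, 1 table per library. Per the study's methods and the submitters' processing notes, the authors made strand-specific mRNA libraries for Illumina sequencing and used Trimmomatic 0.36, STAR 2.5.3a and featureCounts of Subread 1.5.1 with GRCh38. The annotation release, the strand setting of the counting and the treatment of reads that fit several genes are not given in the sources used here. Gene lengths stand for merged exons, so RPKM depends on how many exon bases a row covers.

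From each RPKM value and gene length the reads were recovered, and 173435 of 173435 values above 0 came out whole within 0.01 of a read. Levels, ratios and sums are RPKM, and read counts are these recovered reads. Across the rows, 2 gene names were duplicated and 28 looked like dates, none of them a gene named here. The test was limma 3.58.1 (R 4.3.3) with a trend on log2(RPKM + 0.1), two-sided, over the 23299 genes with at least 0.1 RPKM in 3 or more libraries, with Benjamini-Hochberg adjustment over all of them and group as the only term. For single genes an exact permutation test over libraries was added. Medians and counts describe gene lists, and no set test was run. Alternatives were a pseudocount of 1 or 0.01, no filter, a mean of at least 1 RPKM, a replicate block, leaving out each library, limma voom on the recovered reads and median-ratio scaling. The script was tested on simulated data. Exon overlaps came from the exon coordinates deposited with the RPKM values, 50-, 100- and 150-base words from GENCODE 29 and promoter letters from RefSeq. Python 3.11.15, pandas 2.3.3, numpy 2.4.6, scipy 1.17.1 and matplotlib 3.10.9 were used.

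The genes and lists were chosen with earlier results of these data known. Named genes were all genes of the group, every metallothionein locus with a row, from each of the ZnT, ZIP, copper, metal and oxidant stress and glucocorticoid lists the 3 with the smallest adjusted p under 0.05 and an absolute log2 fold change of at least 0.3, and the 5 genes nearest in pattern. Others were named after their values were seen. Depth ran from 16357085 to 37037532 reads, and limits of 3 reads and 95% Poisson intervals cover counting error only.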

Additional observations from a re-analysis of the deposited data

How the results depend on the processing

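*MT2A* and *MT1X* stayed higher and *MTF1* lower under each of the 13 alternatives. The number of genes of the group called higher, 0 as reported, was 1 with limma voom on the recovered reads (*MT2A*, log2 fold change 0.28, adjusted p = 0.00708) and ranged from 0 to 1 when each library was left out (*MT1X* without control library 3). Over all alternatives the adjusted p of *MT2A* ran from 0.00708 to 0.323 and that of *MT1X* from 0.0338 to 0.387. The number called lower, 1 as reported (*MTF1*), was 0 with the replicate block, 0 with median-ratio scaling and 0 without any 1 library. The log2 fold change of *MTF1* stayed between -0.22 and -0.16. *SLC30A1* turned sign to 0.013 with median-ratio scaling, and ranged from -0.11 to 0.041 over the libraries left out (0.041 without HGC27-FN1 3′-UTR library 2 and 0.0032 without library 3), never passing the threshold. The 4 zinc and copper genes called higher became 0 with the replicate block and 0 to 3 with a library left out, and 0 called lower became 4 with limma voom. No gene of the group passed the study's criteria under any alternative, and the ratio of summed metallothionein RPKM stayed between 1.17 and 1.31. The cause of these changes was not tested.

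The replicate block shares only a number between libraries: deviations of same-numbered libraries correlated at 0.00244, 0.0211 and 0.0103, so the numbers do not pair them. With the block the adjusted p of *MTF1* was 0.108, and 1162 genes were called in all, against 3025 without it and 5108 with limma voom. Median-ratio scaling moved the median log2 fold change of all genes from -0.035 to -0.0031. With 3 libraries a group and 0 to 8 reads for *MT1A*, *MT1E*, *MT1F* and *MT1G*, depth allowed no comparison of these genes.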

Other observations

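Of the stromal markers *LUM*, which encodes the matrix proteoglycan lumican, rose from 5.97 ± 1.04 to 11.8 ± 0.994 RPKM (log2 fold change 0.98; limma adjusted p = 0.00711, n = 3 per group). It was the 1 of 3 tested stromal markers that limma called (all tested genes 5.62% higher and 7.36% lower). *DCN* averaged 2.02 RPKM against 1.64 RPKM in control cells and *PDGFRB* 0.172 RPKM against 0.158 RPKM, and neither passed. Limma voom on the recovered reads, however, called *DCN* higher, 2 of 3 with *LUM* (all tested genes 8.77% higher and 13.2% lower). The immune markers *CD68* and *CD14* averaged 2.20 and 0.207 RPKM in control cells, against 1.97 and 0.139 RPKM with the 3′-UTR overexpressed, and neither passed by limma, at an unadjusted p under 0.05 or by limma voom. The mesenchymal marker *ZEB1* averaged 14.9 and 14.8 RPKM. Of 2 tested mesenchymal markers 0 passed by limma, 0 at an unadjusted p under 0.05 (all tested genes 29.6%) and 0 by limma voom. *CDH2*, a mesenchymal marker that did not enter the test, had 37 reads in all 6 libraries. It averaged 0.0515 RPKM with the 3′-UTR overexpressed and 0.0378 RPKM in control cells.

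The genes that flank the metallothionein cluster were expressed in both groups. *BBS2*, a cilium gene on 1 side, averaged 4.54 ± 0.136 RPKM with the 3′-UTR overexpressed, against 4.82 ± 0.166 RPKM in control cells (limma adjusted p = 0.297, n = 3 per group). *NUP93*, a nuclear pore gene on the other side, averaged 9.36 ± 0.352 and 9.27 ± 0.242 RPKM (limma adjusted p = 0.882). *MT1E*, *MT1A*, *MT1F* and *MT1G*, which lie between them, had 0 to 8 reads in the same libraries.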
